A study of Canis lupus familiaris with 12 samples.

Results

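In cultured blood cells of dogs, 7 genes of the red cell lineage were followed by name: HBM, SLC4A1, EPB42, SPTB, ANK1, GATA1 and KLF1. Each of the 7 has 1 row among the 29822 genes of every deposited table, and all 7 passed the filter on low counts. The libraries are messenger RNA of peripheral blood mononuclear cells (PBMCs), the lymphocytes and monocytes of blood, which were taken from healthy male beagles and separated on a density gradient. For 24 h the cells were cultured with both agents (ConA+ALA), with ConA alone, with ALA alone, or untreated. ConA is concanavalin A, a jack bean lectin used as a T cell mitogen, given at 0.5 µg/ml. ALA is 5-aminolevulinic acid, a precursor of heme, given at 1.0 mM. Every group holds 3 libraries, numbered 1 to 3 in the titles, so each number covers 4 libraries. The labels do not say what a number stands for, and the spread between libraries of a group may be technical.

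Red cells carry hemoglobin, a tetramer of globin chains and heme, inside a membrane held by a spectrin lattice. Beta spectrin (SPTB) is tied through ankyrin (ANK1) and protein 4.2 (EPB42) to band 3 (SLC4A1), the anion exchanger of the red cell membrane. The transcription factors GATA1 and KLF1 switch on globin, heme and membrane genes while red cells form. GATA1 is also known from megakaryocytes, mast cells, basophils and eosinophils. Mature mammalian red cells have no nucleus, while their youngest circulating stage, the reticulocyte, still holds RNA. HBM encodes an alpha-like globin chain, hemoglobin mu, in the alpha globin cluster.

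Total exon reads per library ranged from 13390692 to 21517099. The markers CD3E (T cells) and CD79A (B cells) were detected in every library, at 281 to 564 and 1103 to 2154 CPM (reads scaled to TMM-normalised library size). Libraries of number 1 stood apart: mitochondrially encoded genes took 3.59 to 4.82% of their exon reads, against 11.8 to 23.3% in those of number 2 and 13.1 to 17.2% in those of number 3. Between 66.9 and 71.8% of genes with 2 to 21 exon reads had an even count, a pattern that counting both mates of a read pair gives. A count of 20 may then rest on fewer molecules than 20, and intervals or limits from counts cover counting error only. The exon reads of the members were between 97.8 and 100% unique to their gene.

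On a scale per exon length (TPM, as the authors computed it), the median level over the 12 libraries was 89.6 TPM for HBM, 3.20 TPM for KLF1 and 3.01 TPM for GATA1. The membrane genes were lower still, with medians of 0.350 TPM for EPB42, 0.332 TPM for SPTB, 0.255 TPM for ANK1 and 0.134 TPM for SLC4A1. HBM was above KLF1 within each of the 12 libraries, by a TPM ratio of 5.41 to 68.5. KLF1 was above GATA1 in 7 of 12 libraries, with ratios from 0.260 in ConA library 3 to 5.95 in untreated library 1, so the order of these neighbours was not fixed. The ranges of the membrane genes overlapped each other.

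**Figure D1:**
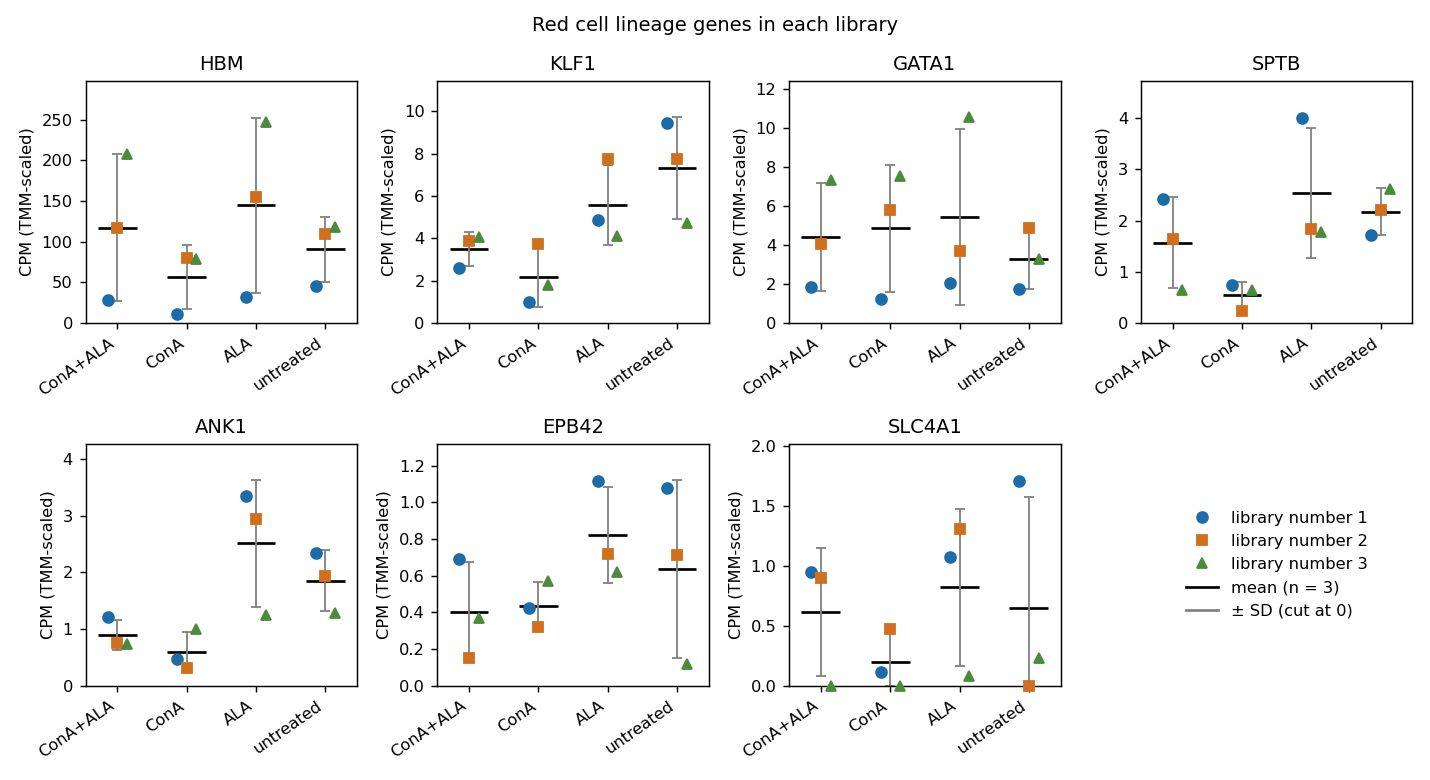
Normalised CPM (TMM-scaled, linear axes from 0) of the 7 genes in the 12 libraries, with points by library number, bars at the group mean and whiskers of ± SD (n = 3). KLF1, SPTB and ANK1 lay lower in all 3 ConA libraries than in all 3 untreated ones, and HBM and GATA1 were lowest in library 1 of every group.

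The globin gene HBM (ENSCAFG00000029224, CanFam3.1 chromosome 6, 40330773 to 40332207, minus strand, 4 annotated exons) held most reads of the set. ConA+ALA libraries 1, 2 and 3 had 640, 1556 and 2263 HBM exon reads, ConA libraries 270, 1010 and 1107, ALA libraries 769, 2362 and 3184, and untreated libraries 996, 1689 and 2029. In each group library 1 was the lowest, and the groups overlapped. Normalised levels averaged 56.4 ± 39.8 CPM with ConA and 90.7 ± 40.0 CPM in untreated cells (SD, n = 3 each). ConA against untreated gave a log2 fold change of −0.69 ± 0.89 (SE), which did not pass (adjusted p = 0.65 by the quasi-likelihood test of edgeR, with the Benjamini-Hochberg adjustment over 13358 genes). Within numbers HBM was lower with ConA in 3 of 3, by 2.06, 0.45 and 0.58 on the log2 scale in numbers 1, 2 and 3. It fell in the model with the number as a block (log2 fold change −1.07 ± 0.33, adjusted p = 0.030). In bulk RNA, fewer cells of a type and less RNA per cell cannot be told apart.

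Beside HBM, 1762 bases away on the same strand, the annotation has a protein-coding gene without a symbol, ENSCAFG00000032615 (chromosome 6, 40235272 to 40329010). It is given here after its values were seen, because it took 0.463 to 4.05% of all exon reads of a library. Its level was 8362, 26563 and 43296 CPM in ConA+ALA libraries 1, 2 and 3, 3833, 19597 and 18081 CPM in ConA libraries, 9901, 40571 and 46660 CPM in ALA libraries, and 14977, 30896 and 31392 CPM in untreated libraries. Library 1 was the lowest of each group here too. With ConA against untreated the change was −0.90 ± 0.74 (edgeR adjusted p = 0.45) and with the number as a block −1.17 ± 0.25 (adjusted p = 0.0035). Reads of this gene outnumbered those of HBM by 189 to 369 times. A further gene without a symbol, ENSCAFG00000028569, overlaps HBM by 506 bases on the same strand, and had at most 115 exon reads in a library.

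Among the membrane genes, SPTB (ENSCAFG00000016120, chromosome 8, 39158795 to 39221193, minus strand, 35 exons) fell with ConA. SPTB had 19, 3 and 9 exon reads in ConA libraries 1, 2 and 3, against 38, 34 and 45 in untreated libraries. ConA+ALA libraries had 56, 22 and 7, and ALA libraries 97, 28 and 23. All ConA libraries lay below all untreated ones, at 0.536 ± 0.263 CPM with ConA and 2.18 ± 0.454 CPM in untreated cells (SD, n = 3 each). The log2 fold change was −1.98 ± 0.64 (SE, edgeR adjusted p = 0.049). The call stood close to the threshold and was lost under 20 of 25 alternatives. It was lost with limma-voom (adjusted p = 0.077) and on leaving out any single library but ConA+ALA 3 (adjusted p 0.053 to 0.14), and it held with the number as a block (−2.09 ± 0.60, adjusted p = 0.011).

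ANK1 (ENSCAFG00000005691, chromosome 16, 23766193 to 23964226, plus strand, 55 exons) had 12, 4 and 14 exon reads in ConA libraries 1, 2 and 3, against 52, 30 and 22 in untreated libraries. In ConA+ALA libraries it had 28, 10 and 8, and in ALA libraries 81, 45 and 16. ConA libraries again lay below untreated ones without overlap (0.591 ± 0.357 CPM with ConA, 1.85 ± 0.535 CPM in untreated cells, SD, n = 3 each). The change of −1.64 ± 0.61 did not pass (edgeR adjusted p = 0.083). It passed narrowly with the number as a block (−1.59 ± 0.62, adjusted p = 0.0498) and with DESeq2 (−1.67, adjusted p = 0.032).

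EPB42 (ENSCAFG00000011974, chromosome 30, 10065469 to 10084976, minus strand, 15 exons) was near the lower limit of detection. Its exon reads numbered 16, 2 and 4 in ConA+ALA libraries 1, 2 and 3, 11, 4 and 8 in ConA libraries, 27, 11 and 8 in ALA libraries, and 24, 11 and 2 in untreated libraries. ConA and untreated libraries overlapped, and the fitted change was −0.54 ± 0.84 (edgeR adjusted p = 0.71), or 0.09 ± 0.98 without untreated library 1. EPB42 lies wholly within the span of CCNDBP1 on the opposite strand, and the sources used here do not state whether counting used strand.

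SLC4A1 (ENSCAFG00000014228, chromosome 9, 19146480 to 19157915, plus strand, 19 exons) had the fewest reads per exon length. ConA+ALA libraries 1, 2 and 3 had 22, 12 and 0 exon reads, ConA libraries 3, 6 and 0, ALA libraries 26, 20 and 1, and untreated libraries 38, 0 and 4. Where the count was 0, a limit of 3 reads allows a level of up to 0.224 CPM (on total exon reads) in ConA+ALA library 3, 0.185 CPM in ConA library 3 and 0.198 CPM in untreated library 2. These limits take each read as separate, and would be higher if both mates of a pair were counted. ConA libraries overlapped untreated ones, and the change of −1.78 ± 1.60 did not pass (edgeR adjusted p = 0.49). Its direction turned without untreated library 1 (0.63 ± 1.84) and without number 1 (0.93 ± 2.21). Of the 9 SLC4A1 reads with ConA, 8 spanned an exon junction, and of the 42 in untreated cells, 30 did.

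Of the transcription factors, KLF1 (ENSCAFG00000017111, chromosome 20, 49295195 to 49298602, plus strand, 3 exons) fell with ConA. Its exon reads numbered 26, 47 and 25 in ConA libraries 1, 2 and 3, against 210, 120 and 81 in untreated libraries. ConA+ALA libraries had 60, 52 and 44, and ALA libraries 118, 118 and 53. Every ConA library lay below every untreated one, at 2.17 ± 1.40 CPM with ConA and 7.31 ± 2.40 CPM in untreated cells (SD, n = 3 each). The log2 fold change was −1.77 ± 0.50 (SE, edgeR adjusted p = 0.028), and −1.90 ± 0.41 with the number as a block (adjusted p = 0.0016). It was lost without ConA 1, ConA 3, untreated 1 or untreated 2 (adjusted p 0.080, 0.091, 0.091 and 0.071), and without any one number (0.10 to 0.16). Few KLF1 reads crossed an exon junction, 9 of 98 with ConA and 55 of 411 in untreated cells, and KLF1 did not pass on junction reads (−2.13 ± 1.13, edgeR adjusted p = 0.22), where 8.8% of tested genes fell. DNASE2, a lysosomal nuclease gene that lies 803 bases downstream on the same strand, was at 45.2, 61.8 and 47.5 CPM in ConA libraries, against 73.2, 145 and 99.5 CPM in untreated libraries. Its part in the KLF1 values was not tested.

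GATA1 (ENSCAFG00000015572, chromosome X, 41971582 to 41998303, plus strand, 7 exons) did not share this pattern. GATA1 exon reads numbered 43, 54 and 80 in ConA+ALA libraries 1, 2 and 3, 32, 73 and 106 in ConA libraries, 50, 56 and 136 in ALA libraries, and 39, 75 and 56 in untreated libraries. ConA and untreated libraries overlapped, at 4.85 ± 3.25 CPM with ConA and 3.29 ± 1.55 CPM in untreated cells (SD, n = 3 each), with a change of 0.56 ± 0.76 (edgeR adjusted p = 0.67). Junction reads made up 16.0% of its exon reads over all libraries, a low share beside the 36.1 to 54.2% of whole libraries. KLF1 was low as well, at 12.3%, and the other members stood at 38.3 to 73.0%. The annotated span of GATA1 lies within that of PCSK1N on the opposite strand and overlaps GLOD5 by 7662 bases. Those genes had at most 20 and 2 exon reads in a library.

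With ConA against untreated, 2 of the 7 genes (SPTB and KLF1) fell and 0 rose, where 8.57% of all tested genes fell and 9.93% rose. With the number as a block 4 of 7 fell (HBM, SPTB, ANK1 and KLF1), where 21.2% of all tested genes did. In 3 of 7 the ConA libraries lay below the untreated ones without overlap, against 18% of tested genes, and 4 of 7 were lower in 3 of 3 numbers, against 34.3%. None of the 7 was higher in 3 of 3 numbers, against 30.6%. Their median log2 fold change was −1.64, and that of all tested genes −0.05.

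**Figure D2:**
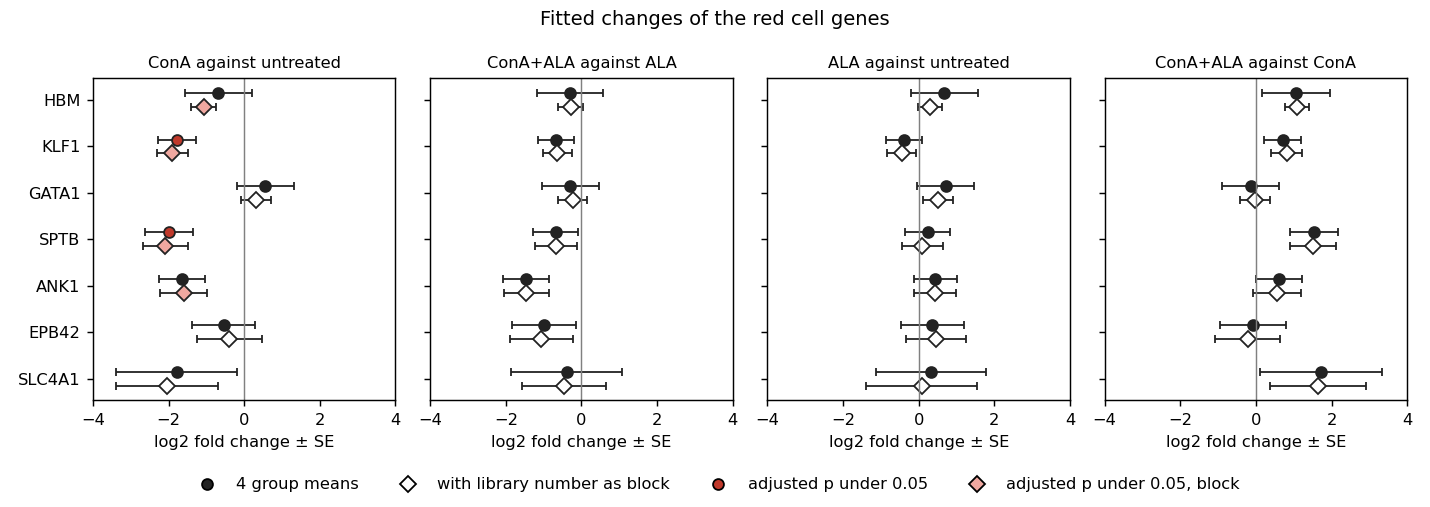
Log2 fold changes ± SE of the 7 genes in 4 comparisons, from the model of 4 group means (circles) and with the library number as a block (diamonds), coloured where the adjusted p is under 0.05. Only the panel of ConA against untreated holds coloured points, SPTB and KLF1 in both models and HBM and ANK1 with the block.

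The comparison of ConA+ALA with ALA asks for the same response in the presence of ALA. None of the 7 genes passed, with or without the number as a block. Of all tested genes 8.12% passed without the block (3.03% fell and 5.09% rose), and with it 14.3% fell and 15.8% rose. In the model without the block all 7 had a fitted change below 0, with a median of −0.67 against −0.07 over all tested genes. ANK1 stood at −1.47 ± 0.60 (SE, edgeR adjusted p = 0.16), with 0.897 ± 0.269 CPM in ConA+ALA libraries and 2.51 ± 1.12 CPM in ALA libraries (SD, n = 3 each), which did not overlap. KLF1 libraries did not overlap either, at 2.59 to 4.04 CPM with ConA+ALA and 4.11 to 7.72 CPM with ALA (log2 fold change −0.67 ± 0.48, edgeR adjusted p = 0.45). Such a separation downward was seen in 13.3% of tested genes. Within numbers, 6 of the 7 genes, all but GATA1, were lower with ConA+ALA in 3 of 3, against 32.2%. In number 3 this rested on slight differences for SLC4A1, with 0 reads against 1, and for KLF1, with −0.02 on the log2 scale. The ConA+ALA libraries are compared with different controls here than the ConA libraries above, and no library is shared.

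ALA without ConA gave no call among the 7 genes and none among all 13358 tested (0% called by edgeR, 155 genes at an unadjusted p under 0.05, 4 called by DESeq2). HBM averaged 145 ± 108 CPM with ALA and 90.7 ± 40.0 CPM in untreated cells (SD, n = 3 each), a change of 0.67 ± 0.89 (edgeR adjusted p = 1). It was higher with ALA in numbers 2 and 3, by 0.50 and 1.06 on the log2 scale, and lower in number 1, by 0.49. KLF1 was lower in 3 of 3 numbers, as 15.9% of tested genes were, but by 0.01 in number 2, and its change was −0.39 ± 0.48 (edgeR adjusted p = 1). EPB42 was higher in 3 of 3 numbers, by 0.03, 0.01 and 0.86, as 14.8% of tested genes were. SLC4A1, SPTB, ANK1 and GATA1 differed in direction between numbers. None of the 7 had ALA libraries wholly above or below the untreated ones, a separation seen upward in 1.91% and downward in 2.36% of tested genes. The smallest edgeR unadjusted p of the 7 was 0.36, for GATA1. The untreated libraries of this comparison are those that ConA was set against above.

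ALA added to ConA likewise gave no call (0% of tested genes by edgeR, 49 genes called by DESeq2). HBM was higher in ConA+ALA than in ConA libraries in 3 of 3 numbers, by 1.37, 0.54 and 1.40 on the log2 scale. Its means were 117 ± 90.2 CPM with ConA+ALA and 56.4 ± 39.8 CPM with ConA (SD, n = 3 each), and its change was 1.06 ± 0.89 (edgeR adjusted p = 1), or 1.08 ± 0.33 with the number as a block (adjusted p = 0.29). KLF1 was higher in 3 of 3 numbers, by 1.04, 0.05 and 1.00 (fitted change 0.71 ± 0.49, edgeR adjusted p = 1), and so was SPTB, by 1.24, 1.54 and 0.005 (1.53 ± 0.63, edgeR adjusted p = 1). Being higher in 3 of 3 numbers was seen in 16.2% of tested genes. The groups overlapped for all 7 genes, where 4.05% of tested genes were separated upward and 3.69% downward. Both groups of this comparison also enter one of the comparisons of ConA above. SLC4A1 had 34 reads over the ConA+ALA libraries and 9 over the ConA libraries (1.71 ± 1.61, edgeR adjusted p = 1), and library 3 had 0 in both groups.

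Whether ALA acted differently with and without ConA was tested by the interaction term. No gene passed among the 7 or among all tested genes (0% by edgeR, 4 called by DESeq2). The term was 1.10 ± 0.68 for KLF1 (edgeR unadjusted p = 0.13) and 1.29 ± 0.86 for SPTB (edgeR unadjusted p = 0.16). With the number as a block it was 1.26 ± 0.56 for KLF1 (edgeR unadjusted p = 0.040, adjusted p = 0.64). KLF1 was lower with ALA in 3 of 3 numbers without ConA and higher in 3 of 3 numbers with it, a contrast that the test of the term did not carry past the threshold. In number 2 both differences were slight, at −0.01 without ConA and 0.05 with it on the log2 scale. The share of tested genes with such opposite directions was not counted. On exon-exon reads the term for KLF1 turned to −0.18.

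The library number separated HBM and GATA1. In a model with the 4 groups and the number, the F-test of the number gave an adjusted p of 0.0005 for HBM and 0.0009 for GATA1 (edgeR). It called 48.5% of all tested genes, so 2 of 7 members lay below that share. HBM averaged 163 ± 78.0 CPM in number 3, 115 ± 30.7 CPM in number 2 and 28.7 ± 14.2 CPM in number 1 (SD over 4 libraries of different treatment). The 4 libraries of number 1 reached at most 44.8 CPM and those of the others at least 78.7 CPM. The log2 difference was 2.52 ± 0.30 for number 3 against 1 and 2.10 ± 0.29 for number 2 against 1 (edgeR adjusted p 0.00024 and 0.00062), and 0.42 ± 0.28 for number 3 against 2 (adjusted p = 0.45). The SE and p for the number, here and for the genes below, rest on the spread left after treatment and number. They do not measure how further numbers would differ.

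GATA1 followed the same order, with 7.18 ± 2.997 CPM in number 3, 4.58 ± 0.942 CPM in number 2 and 1.73 ± 0.355 CPM in number 1 (SD over 4 libraries). Number 1 again lay below the others without overlap. The differences were 2.00 ± 0.35 for number 3 against 1 and 1.43 ± 0.35 for number 2 against 1 (edgeR adjusted p 0.00036 and 0.0043). KLF1 did not pass (edgeR adjusted p = 0.18), at 3.66 ± 1.29, 5.77 ± 2.27 and 4.48 ± 3.68 CPM in numbers 3, 2 and 1. For the membrane genes the number 1 mean was the highest: SLC4A1 averaged 0.0776 CPM in number 3, 0.670 CPM in number 2 and 0.963 CPM in number 1, and ANK1 1.06, 1.49 and 1.84 CPM. None of the 4 membrane genes passed the F-test (edgeR adjusted p 0.063 for SLC4A1, 0.40 for SPTB, 0.42 for EPB42 and 0.69 for ANK1). In the pairwise contrasts SLC4A1 ran opposite to HBM: it was lower in number 3 than in number 1 (−3.30 ± 1.15, edgeR adjusted p = 0.031), while number 2 against 1 (−0.21 ± 1.03) and number 3 against 2 (−3.09 ± 1.24) did not pass (adjusted p 0.89 and 0.16). Its F-test passed under 4 of 19 alternatives: with DESeq2 (0.027), without a filter (0.046), on total gene reads (0.020) and without untreated library 2 (0.0086).

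Red cell genes outside the set were set beside this split. ALAS2, the red cell enzyme that makes ALA, was at 68.0 to 148 CPM in number 3, 85.5 to 170 CPM in number 2 and 18.8 to 80.5 CPM in number 1 (edgeR adjusted p = 0.0020 for the number). AHSP, which stabilises free alpha globin, was at 5.40 to 18.6 CPM in number 3, 8.09 to 17.3 CPM in number 2 and 1.16 to 4.68 CPM in number 1 (edgeR adjusted p = 6.4e-05). The gene beside HBM passed too (edgeR adjusted p = 0.00011). Other measures moved with the number: the junction share of exon reads was 38.6 to 42.6% in number 3, 36.1 to 43.4% in number 2 and 52.4 to 54.2% in number 1, and the summed level of 5 monocyte markers was 55.3 to 311, 52.5 to 355 and 207 to 1168 CPM. Their part in the split was not tested.

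**Figure D3:**
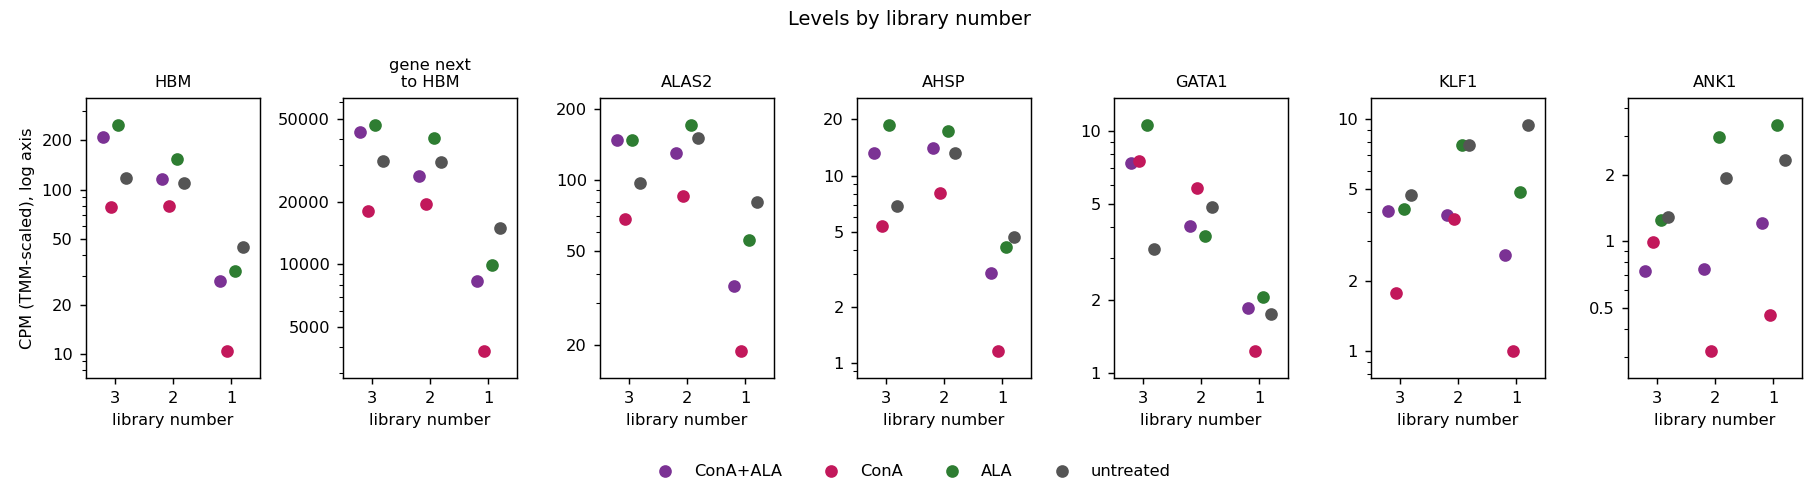
Normalised CPM (TMM-scaled, log axes) of 7 genes by library number, with points coloured by treatment. HBM, the unnamed gene beside it, AHSP and GATA1 were lower in every library of number 1 than in all libraries of numbers 3 and 2, while KLF1 and ANK1 overlapped between numbers.

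With ConA against untreated, AHSP stood at −0.78 ± 0.76 (edgeR adjusted p = 0.53) and with the number as a block at −1.03 ± 0.31 (adjusted p = 0.015). ALAS2 stood at −0.93 ± 0.62 (edgeR adjusted p = 0.34) and with the block at −1.19 ± 0.30 (adjusted p = 0.010). HBM, the gene beside it, ALAS2 and AHSP thus had fitted block changes between −1.03 and −1.19. These genes were chosen after their values were seen.

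SPTB and ANK1 had the largest shares of gene reads in introns. Of the gene reads of SPTB 74.7% fell in introns, and of those of ANK1 58.0%, against 0.915% for HBM, 7.83% for KLF1, 11.1% for EPB42, 25.4% for SLC4A1 and 30.2% for GATA1. The introns of SPTB and ANK1 are also the longest, at 54915 and 191454 bases, against 90 for HBM and 1874 for KLF1. Per kb of intron, HBM had 1833 reads, KLF1 43.2, SPTB 20.5 and GATA1 13.8. SLC4A1 had 5.30, ANK1 2.32 and EPB42 0.927. That scale also depends on how much a gene was read. Per kb of exon, HBM had 13290 reads, KLF1 622 and GATA1 472. The membrane genes were close to each other, at 57.2 for EPB42, 50.9 for SPTB, 48.9 for ANK1 and 44.8 for SLC4A1. Among these membrane genes SPTB had the most intron reads per kb, and ANK1 did not stand apart. SPTB had 92, 74 and 81 intron reads in ConA libraries 1, 2 and 3, against 86, 123 and 129 in untreated libraries, so the intron reads overlapped where the exon reads did not. On intron reads alone its change was −0.30 ± 0.30 (edgeR adjusted p = 0.66), and on all gene reads −0.58 ± 0.30 (adjusted p = 0.23), where 3.14 and 6.31% of tested genes fell. ANK1 had 27, 23 and 26 intron reads in ConA libraries and 22, 56 and 44 in untreated libraries (−0.51 ± 0.50, edgeR adjusted p = 0.64).

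The ratio of exon to intron reads of SPTB was 0.207, 0.0405 and 0.111 in ConA libraries and 0.442, 0.276 and 0.349 in untreated libraries. These did not overlap, which gives p = 0.10 in an exact 2-sided permutation test, the smallest p that 3 against 3 libraries allow (adjusted p = 0.80 over the 8 ratios tested, which were chosen after the values were seen). For ANK1 the ratio was 0.444, 0.174 and 0.538 with ConA, and 2.36, 0.536 and 0.500 in untreated cells, which overlapped (exact 2-sided permutation p = 0.30). ANK1 overlaps GPAT4 on the opposite strand by 52255 bases, so its intron reads could in part belong to that gene where strand was not used. No annotated gene overlaps SPTB.

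**Figure D4:**
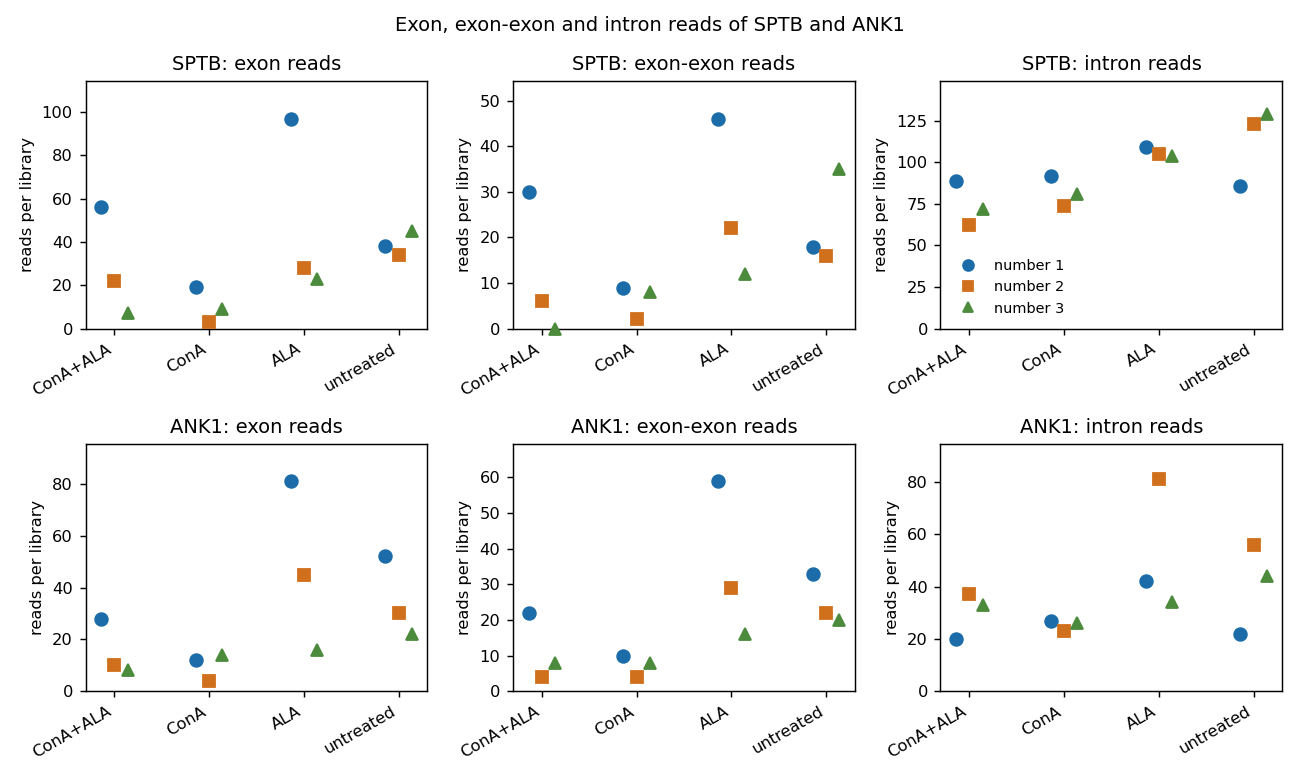
Exon, exon-exon and intron reads per library (not scaled to depth, axes from 0) of SPTB and ANK1, with points by library number. SPTB exon reads were 3 to 19 with ConA and 34 to 45 in untreated cells, while its intron reads were 74 to 92 and 86 to 129.

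The members did not vary as a block over the 12 libraries. Pearson's r between log2(CPM + 0.5) values was 0.84 for HBM and GATA1, 0.78 for SPTB and ANK1, 0.71 for EPB42 and ANK1 and 0.67 for ANK1 and KLF1. It was −0.56 for SLC4A1 and GATA1 and −0.04 for HBM and SPTB. The libraries share treatments, numbers and depth, so these values are descriptions.

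Likeness was measured as Pearson's r against 10042 named genes whose mean count was 20 or more. Those most like HBM were TRIM69 (r = 0.97), TXNDC11 (0.97) and SEPTIN4 (0.96), over 12 libraries. For GATA1 they were ITGB1BP2 (0.97), GTF3C3 (0.94) and CFAP20 (0.93), and for KLF1 GRK5 (0.95), RFX5 (0.93) and C11H9orf43 (0.93). The nearest to SPTB were FLT3 (0.92), NLRP1 (0.90) and LMO2 (0.90), and to ANK1 GPNMB (0.97), ZNF667 (0.95) and RSAD2 (0.95). SLC4A1 was nearest to S100A5 (0.84), INSIG2 (0.81) and MCTP1 (0.80), and EPB42 to HGSNAT (0.90), GPR155 (0.86) and FNBP4 (0.86). With means of 11 and 10.7 reads, the likeness of SLC4A1 and EPB42 is poorly determined.

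Further genes of red cell formation were taken from 3 lists, many of whose members lymphocytes and monocytes also express. Their counts of calls for ConA against untreated stand beside 8.57% lower and 9.93% higher calls among all tested genes, and under the block beside 21.2% lower and 21.3% higher. For ConA+ALA against ALA the shares over all tested genes were 3.03% lower and 5.09% higher, and 14.3% and 15.8% under the block. Of 21 tested membrane and surface genes 5 fell and 1 rose with ConA against untreated (edgeR), with a median log2 fold change of −0.27. The block gave 7 lower and 4 higher calls. Gamma adducin ADD3 fell to 36.0 ± 5.45 CPM with ConA, against 103 ± 61.0 CPM in untreated cells (−1.51 ± 0.34, edgeR adjusted p = 0.010). Protein 4.1, EPB41, which joins spectrin to actin, fell by 1.18 ± 0.27, and glycophorin C, GYPC, by 1.53 ± 0.36 (edgeR adjusted p 0.010 and 0.012). BCAM and DMTN also fell, and the gene that rose was the glucose transporter SLC2A1 (1.16 ± 0.32), all named after their values were seen. STOM, a membrane protein of red cells and monocytes, stood at −1.27 ± 0.44 (edgeR adjusted p = 0.065), passed with the block (−1.37 ± 0.29, adjusted p = 0.0044), and fell with ConA+ALA against ALA (−2.14 ± 0.45, adjusted p = 0.015). In that comparison 1 gene of the list fell and 1 rose (SLC2A1), against 7 lower and 3 higher calls under the block.

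The list of hemoglobin, heme and other red cell enzyme genes held 27, of which 18 were annotated under these names. Those 18 summed to 427 to 655 CPM in a library, where the unnamed gene beside HBM was at 3833 to 46660 CPM. The calls below are thus not a result on that gene. Of 13 tested genes of the list 2 fell and 0 rose with ConA against untreated, with a median of −0.28, against 6 lower and 2 higher calls under the block. BLVRB, a reductase of heme breakdown products, fell to 36.0 ± 3.87 CPM with ConA, against 98.1 ± 26.7 CPM in untreated cells (−1.45 ± 0.28, edgeR adjusted p = 0.0048), and FAXDC2 fell by 2.27 ± 0.71 (adjusted p = 0.045). SLC25A38 (0.70 ± 0.29) and catalase, CAT (−0.60 ± 0.23), did not pass without the block (edgeR adjusted p 0.12 and 0.090), and passed with it (adjusted p 0.0023 and 0.00096). With ConA+ALA against ALA, BLVRB alone of the list fell (−1.24 ± 0.28, edgeR adjusted p = 0.020), against 2 lower and 1 higher call under the block.

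Of 16 tested red cell transcription and erythropoietin response genes 3 fell and 2 rose with ConA against untreated, with a median of −0.30, against 6 lower and 2 higher calls under the block. KLF3, a relative of KLF1 that represses many of the same sites, fell to 12.5 ± 0.735 CPM with ConA, against 58.1 ± 15.5 CPM in untreated cells (−2.21 ± 0.28, edgeR adjusted p = 0.00057). LMO2, a bridging protein of the GATA1 complex, fell by 2.23 ± 0.41 (edgeR adjusted p = 0.0037), and LDB1, its partner, by 0.91 ± 0.27, named after its values were seen. MYB, a factor of progenitors and dividing lymphocytes, rose by 1.17 ± 0.30, and the erythropoietin receptor kinase JAK2, which also serves other cytokine receptors, by 0.75 ± 0.22 (edgeR adjusted p 0.018 and 0.032). With ConA+ALA against ALA, KLF3 fell (−1.48 ± 0.27, edgeR adjusted p = 0.0078) and no other gene of the list passed, against 4 lower and 1 higher call under the block. In the 2 comparisons of ALA no gene of the 3 lists passed.

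Marker lists of other cell types were read beside the fall of SPTB and KLF1. Platelet, basophil and mast cell, monocyte and neutrophil markers summed to less in every ConA library than in every untreated one, while the sums of progenitor, T cell and B cell markers overlapped. The platelet sums were separated only with F13A1 counted, a gene that monocytes also express. The counts below are lower calls for ConA against untreated, where 8.57% of all tested genes fell, and 21.2% with the number as a block. No gene of these 7 lists rose, with or without the block.

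The summed level of 11 platelet and megakaryocyte genes was 20.2 to 40.7 CPM in ConA libraries and 114 to 183 CPM in untreated libraries. Most of the untreated sums was F13A1, at 150, 100 and 70.9 CPM of 176, 183 and 114 CPM in libraries 1, 2 and 3. In ConA libraries it held 11.8, 16.3 and 11.9 CPM of 20.2, 40.7 and 40.6 CPM. Without F13A1 the sums of ConA and untreated libraries overlap. Of 9 tested 2 fell, and 5 with the block. F13A1, which monocytes also express, fell by 3.01 ± 0.44 and GP6 by 2.98 ± 0.84 (edgeR adjusted p 0.0011 and 0.028). SELP (−3.09 ± 1.05) and MYL9 (−1.30 ± 0.56) did not pass (edgeR adjusted p 0.061 and 0.13), and passed with the block (both adjusted p = 0.024).

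For 11 basophil, mast cell and eosinophil genes the sum was 22.5 to 28.1 CPM with ConA and 39.2 to 62.2 CPM in untreated cells, and PRG3 had 0 reads in every library. Of 5 tested 2 fell, and 4 with the block. The IgE receptor chain FCER1A (−2.22 ± 0.43) and KIT (−2.41 ± 0.75), a receptor of mast cells and progenitors, fell (edgeR adjusted p 0.0048 and 0.042). ENPP3 (−1.71 ± 0.56) and CMA1 (−0.75 ± 0.29) did not pass (edgeR adjusted p 0.054 and 0.097), and passed with the block (adjusted p 0.00069 and 0.029). Of 5 tested progenitor genes KIT alone fell, also with the block, and their sums were 2.97 to 11.9 CPM with ConA and 11.2 to 13.8 CPM in untreated cells.

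The 5 monocyte genes summed to 52.5 to 207 CPM with ConA and 311 to 647 CPM in untreated cells. FCGR1A and LYZ fell, 2 of 5, and 5 of 5 with the block. The 4 neutrophil genes summed to 69.3 to 155 CPM with ConA and 173 to 419 CPM in untreated cells, and S100A8 and CSF3R, 2 of 3 tested, fell in both models. T cell genes summed to 567 to 935 CPM with ConA and 860 to 1444 CPM in untreated cells. CD5 and LCK fell, 2 of 7, and 5 of 7 with the block.

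B cell genes summed to 1355 to 2344 CPM with ConA and 1453 to 2314 CPM in untreated cells, nearly the same range. Most of each sum was CD79A, so the sums say little of the other genes. CD79A was at 1290, 2075 and 1775 CPM in ConA libraries 1, 2 and 3, and 1328, 1883 and 1629 CPM in untreated libraries. Its change was 0.09 ± 0.28 (edgeR adjusted p = 0.87). Of the 6 genes 5 had a fitted change below 0 and 1 above, with a median of −0.83. BLK and CD79B fell, 2 of 6, and 4 of 6 with the block. The part of these markers in the fall of SPTB and KLF1 was not tested.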

How the data were processed

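For each library the authors deposited 1 table. It was made from poly(A) RNA read in pairs of 75 bp, per the labels' protocols. CanFam3.1 is the build named in the submitters' processing notes, which also list bcl2fastq. No source used here states the aligner, the counter or the strand setting. Per the file headers the tables hold exon, exon-exon, intron and gene reads as raw counts, and TPM and RPKM as the authors normalized them. The deposited RPKM were not used.

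Members were matched on the gene name. Members and lists were chosen with earlier results of these data known. For the tests, edgeR 4.0.16 (R 4.3.3) was run on the total exon counts with TMM scaling, filterByExpr (13358 of 29822 genes kept), 1 model of 4 group means over 12 libraries, robust quasi-likelihood F-test and Benjamini-Hochberg adjustment over all genes tested, with a threshold of 0.05. SE is the size of the log2 fold change divided by the square root of F. CPM are on TMM-scaled library sizes. The fit was also run on simulated counts that held no effect of the library number and no changed genes with few reads. That run does not check the fit for such an effect or for such genes.

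Same-numbered libraries of different groups deviated together from their group means (18 pairs, r 0.38 to 0.75, all above 0.1; other pairs −0.50 to 0.21), so the numbers pair the libraries, and the number was a block in an alternative fit. The main model leaves the differences between numbers in its error, so its p are not those of a paired test. Other alternatives were DESeq2 1.42.0, limma-voom (limma 3.58.1), other size factors, filters, read classes and libraries left out; fits on intron and on exon-exon reads were added after the data were seen. Libraries of a group differed far beyond sampling noise (chi-square per degree of freedom at least 64.3). Named genes were the members, the 3 genes most like each in log2(CPM + 0.5), and up to 4 genes of each list by smallest p over the comparisons. No sequence is shown. Figures used matplotlib 3.10.9 in Python 3.11.15.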

Additional observations from a re-analysis of the deposited data

How the results depend on the processing

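The count of genes called for ConA against untreated was 1614 with the compared groups only, 1117 on intron reads, 5676 with the replicate number as a block, and 55 to 2467 with a library or a number left out (2471 in the main model), the lowest without number 2, then 1018 without number 3, 1592 without untreated 1 and 1616 without untreated 2. Of the 7 red cell genes 2 were called there, against 0 with the compared groups only, on exon-exon reads and on intron reads, 1 with limma-voom, with a mean of at least 50 counts, without a filter and on total gene reads, 3 with DESeq2 (ANK1 added), 4 with the block, and 0 to 2 with libraries left out. For ALA against untreated DESeq2 called 4 genes and the block 6, against 0. For ConA+ALA against ConA the counts were 49 with DESeq2, 3 with the compared groups only, 2 on intron reads, 2 without a filter, 2 on total gene reads and 74 with the block, against 0, and 0 to 6 with libraries left out. For ConA+ALA against ALA they were 1830 with DESeq2, 232 on intron reads and 4022 with the block, against 1085, and 0 to 1184 with libraries left out (0 without number 2, 137 without number 3, 435 without ALA 1, 456 without ALA 2, and 519, 464 and 597 without ConA+ALA 1, 2 and 3). The interaction had 4 calls with DESeq2, 2 on intron reads and 0 to 1 with libraries left out. The library number had 3718 calls on exon-exon reads, against 6476, and 2 to 3 red cell genes with a library left out, the third being SLC4A1 without untreated 2. Why the counts moved was not tested. None of the 7 genes was called under any setting tried in the comparisons of ALA, of ConA+ALA with ALA, or in the interaction.

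Among single-gene results, 912 values under an alternative kept their direction and call, 29 lost the call (20 for SPTB and 9 for KLF1, both for ConA against untreated), 7 gained one and 50 turned. Directions that turned were of genes that were not called. They were SPTB for ALA against untreated on intron reads (−0.11); EPB42 (0.29) on total gene reads, SPTB (−0.049) and GATA1 (0.13) on intron reads, GATA1 with limma-voom (0.089) and KLF1 on exon-exon reads (−0.36) for ConA+ALA against ConA; SLC4A1 on exon-exon reads (0.19) for ConA+ALA against ALA; and EPB42 on total gene reads (0.11) and KLF1 on exon-exon reads (−0.18) in the interaction. With a library or a number left out, directions also turned for these genes, whose lowest and highest log2 fold changes were: −3.72 and 0.93 (SLC4A1) and −1.25 and 0.11 (EPB42) for ConA against untreated; −0.70 and 2.73 (SLC4A1), −0.12 and 1.00 (EPB42), −0.41 and 0.59 (SPTB) and −0.20 and 1.31 (GATA1) for ALA against untreated; −0.78 and 0.30 (EPB42) and −0.72 and 0.34 (GATA1) for ConA+ALA against ConA; −1.003 and 0.33 (HBM), −0.91 and 0.16 (SLC4A1) and −0.88 and 0.61 (GATA1) for ConA+ALA against ALA; and −0.31 and 1.02 (HBM), −1.55 and 3.50 (SLC4A1), −1.47 and 0.17 (EPB42), −0.23 and 0.75 (ANK1) and −1.43 and 0.061 (GATA1) for the interaction.

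Depth limits the membrane genes most, with mean exon reads of 11 for SLC4A1 and 10.7 for EPB42 per library, and calls of the model without the block rest on few libraries.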
